A study of Mus musculus with 6 samples.

Results

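Foregut and hindgut endoderm lineage factors are the transcription factors that assign parts of the embryonic gut tube to lung, stomach, liver or intestine. Here they are a list of 9 genes, drawn up with earlier results of these arrays known, Cdx2, Sox2, Hnf4a, Foxa1, Foxa2, Foxa3, Gata6, Nkx2-1 and Sox9, out of 18193 genes on the array, and every probe set annotated to 1 of them alone was taken, 17 of 45101 probe sets. They were measured in 393P, a mouse lung cancer cell line, in 2 groups of 3 samples, 1 array each. Cells of the control group stably carried the empty pcDNA vector, and cells of the other group stably and constitutively expressed Zeb1, a zinc-finger repressor of epithelial genes. Both groups grew in the same medium with 10% fetal bovine serum. The promoter that drove Zeb1, and whether each group was a pool or 1 clone, are not given in the sources used here. Nor do these say whether the 3 samples of a group were separate cultures, so p-values measure only the spread between these samples, which may be technical.

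The gut tube is patterned from front to back. Nkx2-1 marks the lung and thyroid buds of the foregut and drives surfactant genes in the adult lung. Sox2 marks the foregut that becomes oesophagus, stomach and airway and is also a core factor of pluripotent cells, whereas Cdx2 specifies the hindgut and keeps the adult intestine intestinal. Foxa1, Foxa2 and Foxa3 are forkhead pioneer factors that open chromatin throughout the endoderm, and Gata6 is a zinc-finger factor of early endoderm. Hnf4a is a nuclear receptor of liver, intestine and stomach epithelium, and in mouse lung adenocarcinoma it is known as part of a gastric programme seen after loss of Nkx2-1. Sox9 is kept by the progenitors at the tips of the growing lung and is the master factor of cartilage.

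The 9 genes differed among themselves. Sox2 and Cdx2 went from floor-level signals in control cells to clear signals in Zeb1 cells, at least 77.3-fold and at least 66.6-fold higher, and Hnf4a was higher by 7.93-fold to at least 47.9-fold over 3 probe sets. Foxa2 and Sox9 had clear signals in control cells and were 2.55-fold and 2.14-fold higher in Zeb1 cells. Gata6 was 1.69-fold lower on its brightest probe set, Foxa1 overlapped between the groups, Foxa3 was lower by a narrow margin without a call, and Nkx2-1 lay near the floor in both. The genes had been picked with this same contrast known, so their differences are given as a description, without p-values.

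The sequences before the start sites of the genes with the largest differences are shown because Zeb1 is known to bind E-boxes of the form CACCTG, and because these genes were high together in the same 3 arrays. Annotated starts in RefSeq (GRCm38.p6) were read for 7 of the 9 genes. No start was read for Gata6 or Sox9, so nothing is said of their sequences. Each sequence below is the 250 bases before a start, 5′ to 3′ on the strand of the gene, with CACCTG or its reverse complement CAGGTG in capitals, and Foxa1 is included as a member whose groups overlapped.
Cdx2, chr5:147307250-147307499, minus strand: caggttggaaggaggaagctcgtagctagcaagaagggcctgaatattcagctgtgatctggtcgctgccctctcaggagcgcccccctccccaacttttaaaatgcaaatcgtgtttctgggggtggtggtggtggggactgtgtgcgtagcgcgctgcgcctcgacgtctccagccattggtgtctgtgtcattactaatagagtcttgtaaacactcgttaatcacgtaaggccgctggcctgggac
Sox2, chr3:34649745-34649994, plus strand: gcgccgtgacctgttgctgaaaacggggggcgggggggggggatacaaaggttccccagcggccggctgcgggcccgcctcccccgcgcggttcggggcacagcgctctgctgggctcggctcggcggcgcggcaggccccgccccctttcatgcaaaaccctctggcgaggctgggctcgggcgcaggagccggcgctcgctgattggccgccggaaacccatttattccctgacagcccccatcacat
Hnf4a upstream start, chr2:163506607-163506856, plus strand: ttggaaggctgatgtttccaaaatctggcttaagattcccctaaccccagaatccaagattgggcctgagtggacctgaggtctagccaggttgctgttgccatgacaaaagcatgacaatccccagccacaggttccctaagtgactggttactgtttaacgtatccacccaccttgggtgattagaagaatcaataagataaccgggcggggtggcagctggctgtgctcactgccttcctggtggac
Hnf4a downstream start, chr2:163546905-163547154, plus strand: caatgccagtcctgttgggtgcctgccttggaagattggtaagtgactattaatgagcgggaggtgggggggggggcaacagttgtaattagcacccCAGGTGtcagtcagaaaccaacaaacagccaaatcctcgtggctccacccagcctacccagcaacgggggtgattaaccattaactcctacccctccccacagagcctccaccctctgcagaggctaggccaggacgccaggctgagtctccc
Foxa1, chr12:57546112-57546361, minus strand: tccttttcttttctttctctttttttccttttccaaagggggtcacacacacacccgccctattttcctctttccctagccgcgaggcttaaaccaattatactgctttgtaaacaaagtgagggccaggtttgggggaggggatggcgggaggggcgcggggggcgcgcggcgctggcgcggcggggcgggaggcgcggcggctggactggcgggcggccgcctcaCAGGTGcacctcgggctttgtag
Of the 32851 starts in the table, 17.2% held CACCTG on either strand within their 250 bases. Neither the Cdx2 nor the Sox2 sequence held it, nor did any of the 3 starts of Foxa2. Of the 2 starts of Hnf4a, the downstream one held it once, with its first letter 153 bases before the start. Foxa1 (23 bases before), Foxa3 (173 bases before) and Nkx2-1 (205 bases before) held it once each. The Foxa-type letters TGTTTAC, found on either strand in 3.17% of all starts, stood once before Cdx2, 40 bases from its start, and once before Foxa1, 141 bases from its start. The Cdx2-type letters TTTATG (10.8% of all starts) were in none of the windows of the 7 genes, and the Sox-type letters ATTGTT (9.42%) were in that of Nkx2-1 alone. The Sox2 sequence was 72.0% G and C, against 55.2% for Cdx2 and a median of 52.4% over all starts. No matches overlapped. These matches describe the letters in these windows and nothing about binding.

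The deposited values were log2 signals, and all arrays had the same trimmed mean on the linear scale (500 to 500.2). Signals below log2 4.45, the 25th percentile of all values, were raised to that floor before means were taken. A difference that starts from the floor is therefore a lower bound, and its fold is written as at least N-fold. A higher floor at log2 6.32, the 50th percentile, was tried as an alternative. A probe set was tested if 3 or more arrays read it at or above their own median, which held for 20594. Over probe sets above the floor on every array, r was 0.980 to 0.983 within groups and 0.930 to 0.935 between them. Zeb1 itself read 9.69 ± 0.096 (SD, n = 3) in Zeb1 cells and 4.47 ± 0.034 in control cells on its brightest probe set. Of the 5 epithelial markers examined, Krt8, Krt18 and Krt19 stayed above 13 in both groups, while Epcam fell from 13.72 to 6.66 and Cdh1 from 14.18 to 10.17. The 18 markers of stromal, endothelial and blood cells on the array had summed linear signals of 1266 to 1507 in control arrays and 1162 to 1516 in Zeb1 arrays, 0 of the 3 that could be tested were called by limma (0 at an unadjusted p under 0.05), and the endothelial marker Pecam1 and the pericyte marker Pdgfrb lay at the floor on all 6 arrays. The fibroblast collagens Col3a1 (4.87 in control and 6.22 in Zeb1 cells) and Col1a1 (5.37 and 5.95) were higher on every Zeb1 array and did not pass the filter. The 5 epithelial markers summed to 89443 to 95379 in control arrays and 57520 to 61742 in Zeb1 arrays. The part of these markers in the results below was not tested. On bulk arrays, a change in the number of cells that express a gene and a change in its RNA per cell cannot be told apart.

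**Figure D1:**
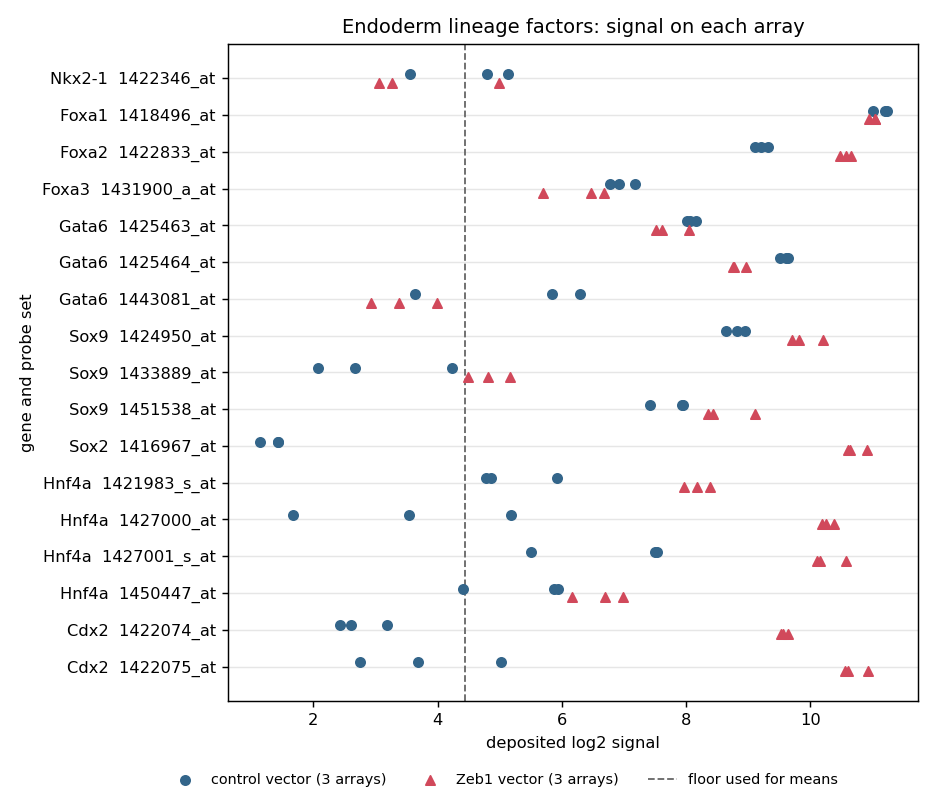
Deposited log2 signal (horizontal axis) of each of the 17 probe sets (vertical axis, gene and probe set) on the 3 control vector arrays (circles) and the 3 Zeb1 vector arrays (triangles), with the floor of 4.45 as a dashed line. Sox2, both Cdx2 probe sets and the Hnf4a probe set 1427000_at have Zeb1 arrays above 9.5 and control arrays at or below 5.18, while Foxa1 overlaps near 11 and Nkx2-1 lies near the floor.

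Cdx2, the hindgut factor, was read by 2 probe sets made to the same reference transcript. On 1422075_at the control arrays had deposited log2 signals of 2.74, 3.69 and 5.02, and the Zeb1 arrays had 10.61, 10.55 and 10.92. On 1422074_at they were 3.19, 2.61 and 2.43 in control arrays and 9.55, 9.63 and 9.53 in Zeb1 arrays. All Zeb1 arrays were high and all control arrays low on both probe sets, and only control replicate 3 on 1422075_at rose above the floor. With the floor, the log2 difference was 6.06 (SE 0.203), at least 66.6-fold, on 1422075_at and 5.13 (SE 0.179), at least 34.9-fold, on 1422074_at. On 1422074_at the control arrays were all set to the floor, so that SE holds no spread between them.

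Sox2, the foregut and stem cell factor, was read by a single probe set. Its deposited log2 signals were 1.43, 1.14 and 1.43 in control arrays and 10.61, 10.64 and 10.91 in Zeb1 arrays. All 3 control arrays lay below the floor and all 3 Zeb1 arrays were high. With the floor, the Zeb1 mean was 10.72 ± 0.164 (SD, n = 3) and the log2 difference was 6.27 (SE 0.158), at least 77.3-fold. The control arrays were all set to the floor, so this SE holds no spread between them. Sox2 and Cdx2 were high in the same samples, while their normal domains lie at opposite ends of the gut tube. The arrays read RNA from many cells, so whether the same cells held both was not tested.

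Hnf4a, the nuclear receptor, had 4 probe sets that agreed in direction and differed in size. On 1427000_at the control arrays had 5.18, 3.54 and 1.68 and the Zeb1 arrays 10.19, 10.38 and 10.24. On 1427001_s_at they were 7.53, 7.51 and 5.50 against 10.10, 10.16 and 10.57. On 1421983_s_at they were 5.92, 4.86 and 4.77 against 8.17, 7.96 and 8.38. The groups did not overlap on any of these 3, and control replicate 3 was the lowest array on each. The log2 difference was 5.58 (SE 0.223), at least 47.9-fold, on 1427000_at, 3.43 (SE 0.462), 10.8-fold, on 1427001_s_at, and 2.99 (SE 0.323), 7.93-fold, on 1421983_s_at, where it was 1.85 with the higher floor. On 1427001_s_at, where control cells showed some signal, the difference ranged from 2.76 to 3.77 when 1 array was left out. The fourth, 1450447_at, was low throughout (4.41, 5.87 and 5.94 against 6.70, 6.16 and 6.99) and was not tested. Which of the 2 promoters, and so which isoform class, the Hnf4a transcripts came from is not read by these values.

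Among the forkhead factors of the endoderm, Foxa2 was called as higher and Foxa1 and Foxa3 were not called. Foxa2, which acts with Foxa1 in lung and gut, had log2 signals of 9.32, 9.11 and 9.21 in control arrays and 10.47, 10.57 and 10.65 in Zeb1 arrays. Every Zeb1 array was above every control array, and the log2 difference was 1.35 (SE 0.095), 2.55-fold. Foxa1, the pioneer factor shared by lung and gut, had 11.20, 11.23 and 11.01 in control arrays and 11.04, 11.04 and 10.95 in Zeb1 arrays. Its groups overlapped and its log2 difference was -0.14 (SE 0.081). Foxa3, the family member best known from liver, had 6.92, 7.18 and 6.78 against 5.70, 6.47 and 6.68. All Foxa3 control arrays lay above all Zeb1 arrays by a narrow margin, Zeb1 replicate 1 was the lowest, and the log2 difference was -0.68 (SE 0.293) with a range of -0.88 to -0.39 when 1 array was left out. It was called as a fall without Zeb1 replicate 3.

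Gata6, the GATA factor of early endoderm, was lower on its brightest probe set. On 1425464_at the control arrays had 9.64, 9.52 and 9.61 and the Zeb1 arrays 8.78, 8.96 and 8.76, which did not overlap. The log2 difference was -0.76 (SE 0.105), 1.69-fold lower. On 1425463_at the values were 8.07, 8.02 and 8.16 against 8.04, 7.61 and 7.52, and Zeb1 replicate 1 lay among the control arrays. The log2 difference there was -0.36 (SE 0.171). Without that array it was -0.52 and was called as a fall. The third, 1443081_at, was at the floor on all 3 Zeb1 arrays and on 1 control array and was not tested. Gata6 thus kept a clear signal in Zeb1 cells on its 2 brighter probe sets.

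Sox9, the factor of lung tip progenitors and cartilage, was higher on the 2 probe sets that could be tested. On 1424950_at the control arrays had 8.95, 8.64 and 8.82 and the Zeb1 arrays 9.70, 9.81 and 10.20. On 1451538_at they were 7.93, 7.95 and 7.43 against 8.43, 8.35 and 9.12. The groups did not overlap on either, with Zeb1 replicate 3 the highest on both. The log2 differences were 1.10 (SE 0.146), 2.14-fold, and 0.86 (SE 0.229), 1.82-fold, and the call of the second was lost with the higher floor and with no filter. The third, 1433889_at, read 2.68, 4.23 and 2.07 against 4.82, 4.49 and 5.16, close to the floor, and was not tested.

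Nkx2-1, the factor that defines lung epithelium, gave 5.13, 4.80 and 3.55 in control arrays and 3.26, 4.99 and 3.05 in Zeb1 arrays. The groups overlapped, 3 of the 6 arrays lay at the floor, no array reached its median, and the probe set was not tested. In a line labelled as lung cancer, this probe set thus gave no signal above the filter in either group. Of the other lung epithelial markers examined, Scgb1a1 and Napsa averaged 4.83 and 4.78 in control cells and were not tested. Sftpc averaged 6.31 in control and 6.30 in Zeb1 cells, Sftpb averaged 8.08 and 8.44, and both were tested and not called.

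Of the 17 probe sets, 13 were tested, from 8 of the 9 genes. Of these 13, 9 rose, 1 fell and 3 were not called at an adjusted p of 0.05, where 46.1% of all tested probe sets were called, 24.5% as higher and 21.6% as lower. The groups did not overlap for 11 of the 13, against 55.4% of all tested probe sets. Of the 9 that rose, 6 belong to Cdx2, Sox2 and Hnf4a, and 5 of these passed the filter only through the 3 Zeb1 arrays, so a difference was built into their passing. Nothing is read from these counts, since the genes were chosen on the same contrast.

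**Figure D2:**
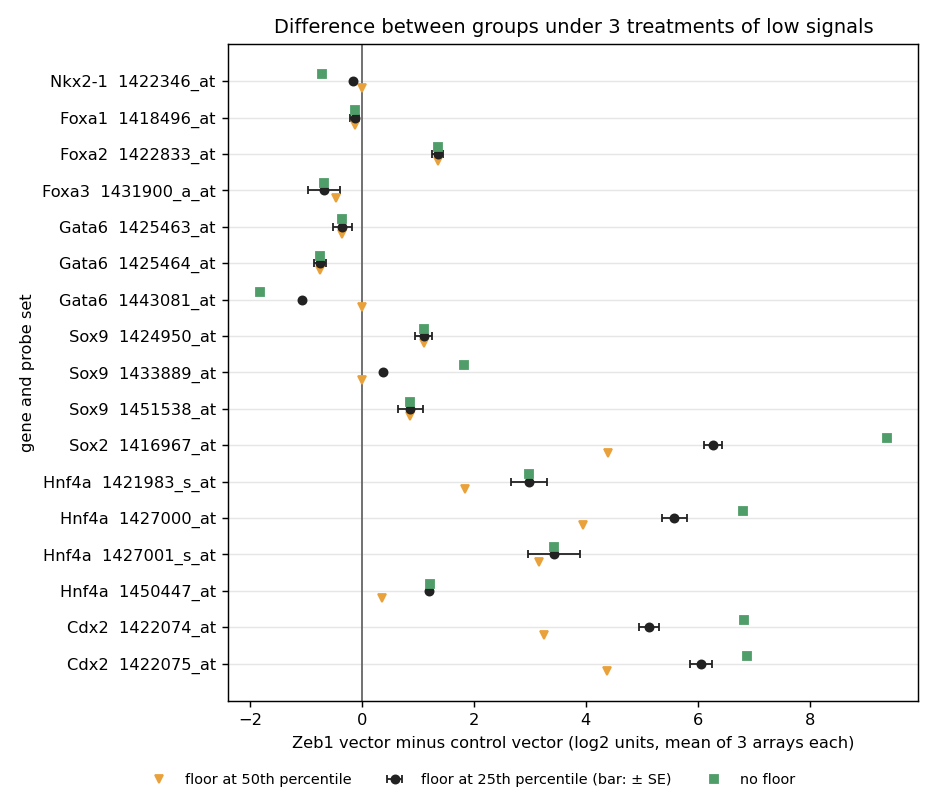
Zeb1 vector minus control vector in log2 units (horizontal axis, means of 3 arrays each) for the 17 probe sets (vertical axis) under the floor at the 25th percentile (circles, bars ± SE for tested probe sets), at the 50th percentile (triangles) and with no floor (squares). Sox2 spans 4.39 to 9.38 and Cdx2 (1422075_at) 4.37 to 6.88, all far above 0, while Foxa1, Foxa2 and the 2 brighter Gata6 probe sets do not depend on the floor.

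The size of the differences of Sox2, Cdx2 and Hnf4a depended on how low signals were treated. With the higher floor the log2 difference of Sox2 was 4.39, and with no floor it was 9.38. For Cdx2 on 1422075_at the same settings gave 4.37 and 6.88, and for Hnf4a on 1427000_at 3.95 and 6.81. The direction was the same under each of these, and the size is known only as a bound.

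The genes with the most similar profiles were found by the root mean square distance over the 6 arrays between log2 profiles, each centred on its own mean. The profile nearest to Sox2 was that of Mdfic (distance 0.175), followed by Chst1, a sulfotransferase (0.216), and Cdx2 (0.221). The profile nearest to Cdx2 was that of Sox2, followed by Chst1 (0.234) and the copper carrier ceruloplasmin, Cp (0.25). For Hnf4a on 1427001_s_at they were Map2k6, a kinase that activates p38 (0.316), Egln3, an oxygen-sensing hydroxylase (0.319), and Pcbp3, an RNA-binding protein (0.394). With 6 arrays in 2 groups, such likeness says mainly that the differences between groups are of like size. The floor was applied first, so Sox2, Mdfic and Chst1, each at the floor on all 3 control arrays, were alike there by construction.

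Genes of the intestine, where Cdx2 normally acts, mostly gave too little signal to test. Of 34 listed intestinal genes on the array, 29 missed the signal filter, 5 of them at the floor on all 6 arrays, and of the 5 tested 2 rose, 1 fell and 2 were not called, with a median log2 difference of 0.13. Over all 11893 genes, taken by their brightest tested probe set, 25.8% were higher and 23.5% lower, with a median of 0.01. Cdh17, the intestinal cadherin and a known direct target of Cdx2, rose by 6.17 on the log2 scale (5.76 ± 0.434 to 11.93 ± 0.044, SD, n = 3 each). Its control signal was low, and the rise was 5.60 with the higher floor. The tetraspanin Tspan8 rose by 1.83 from an existing 10.95 ± 0.202 on its brightest probe set. Other Tspan8 probe sets rose by 2.29, 1.17 and 1.07, and another was not called (log2 difference 0.54). Krt20, a keratin of differentiated intestinal and gastric cells, fell by 2.33. Cdx1, the paralogue of Cdx2, lay at the floor on all 6 arrays. The brush border genes Mep1a (7.15 in control and 7.12 in Zeb1 cells) and Alpi (7.02 and 7.16) were tested and not called. The galectin Lgals4 averaged 4.67 and 5.94 and the mucin Muc2 averaged 5.63 and 6.57, each higher on every Zeb1 array, and neither passed the filter.

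Of 19 stomach genes on the array 9 were tested, of which 1 rose, 4 fell and 4 were not called, where 25.8% of all genes were higher and 23.5% lower. The median log2 difference was -0.13. The surface antigen Psca fell by 7.17 (11.79 ± 0.078 to 4.62 ± 0.301) with 2 Zeb1 arrays at the floor, and by 5.46 with the higher floor. The membrane mucin Muc1 fell by 4.13, the gastric protease cathepsin E, Ctse, by 1.85 and the annexin Anxa10 by 1.08. The trefoil peptide Tff1 was the single riser, by 0.34 (SE 0.096, adjusted p = 0.0169) from a high 10.80 ± 0.185, and it was not called without control replicate 1 or without Zeb1 replicate 2, nor with the higher floor, with no filter or with no intensity trend. Gata4, a stomach and heart relative of Gata6, had a log2 difference of 0.07 on its tested probe set and was not called.

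Of 25 lung genes on the array 17 were tested, of which 2 rose, 4 fell and 11 were not called, with a median log2 difference of -0.08, against the same 25.8% and 23.5% of all genes. The water channel Aqp5 fell by 2.59, the protease cathepsin H, Ctsh, fell by 2.17, the surfactant lipid transporter Abca3 fell by 1.88 and podoplanin, Pdpn, an alveolar type I marker, fell by 1.66. The transcription factors Cebpa and Etv5 rose by 1.31 and 0.80. The secreted surfactant genes Sftpa1, Sftpb, Sftpc and Sftpd were tested and not called.

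Hepatocyte genes, many of them bound by Hnf4a in liver, mostly missed the signal filter. Of 29 on the array 9 were tested by limma, 3 rose, 0 fell (0 at an unadjusted p under 0.05) and 6 were not called, with a median log2 difference of 0.24. By comparison, 25.8% of all genes were higher and 23.5% lower. The retinol carrier Rbp4 rose by 2.48 (8.16 ± 0.111 to 10.64 ± 0.113). The sterol hydroxylase Cyp27a1 and the bile acid receptor Nr1h4 rose by 1.69 and 1.63 from low signals, and by 0.46 and 0.56 with the higher floor. Afp, the fetal liver protein, was bright in both groups (log2 difference -0.02, not called).

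Of 24 listed pluripotency and stem cell genes 10 were tested, 2 rose, 2 fell and 6 were not called, with a median of 0.08. Among all genes, 25.8% were higher and 23.5% lower. Nanog and Lin28b lay at the floor on all 6 arrays. Pou5f1, which pairs with Sox2 in pluripotent cells, did so on all 3 Zeb1 arrays and on 2 control arrays, and was not tested. Klf4 (10.80 in control and 10.62 in Zeb1 cells) and Esrrb (7.87 and 7.53) had signals on all 6 arrays and were not called. Lefty1, a secreted inhibitor of Nodal, rose by 3.46 (7.34 ± 0.188 to 10.81 ± 0.097) and the factor Klf2 rose by 0.78. Tfcp2l1 fell by 2.00 to the floor, a call lost with the higher floor (log2 difference -0.18). Myc fell by 0.25 (adjusted p = 0.0314), a call lost without control replicate 1 or 3 or Zeb1 replicate 1 or 2, with the higher floor, with no filter and with no intensity trend.

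Among the other SOX factors on the array 10 of 17 were tested, 2 rose and 2 fell, with a median log2 difference of 0.12. The share over all genes, for these and for the cartilage genes below, was 25.8% higher and 23.5% lower. Sox11, a neural and progenitor factor, fell by 3.87 (8.73 ± 0.170 to 4.86 ± 0.588) with 1 Zeb1 array at the floor, and by 2.41 with the higher floor. Sox4 fell by 0.36 on its brightest probe set and by 0.77, 0.79, 0.87 and 1.16 on the 4 others that were called, while 1 more was not called (log2 difference 0.41). Sox13 and Sox12 rose by 1.72 and 0.65. Sox17, the definitive endoderm factor, was low in both groups (5.52 ± 0.332 and 5.56 ± 0.547) and not tested. Of 17 cartilage genes, a class that Sox9 is known to control, 6 were tested by limma, 0 rose (0 at an unadjusted p under 0.05), 1 fell and 5 were not called, with a median of 0.11. The one that fell was aggrecan, Acan, which fell by 0.83, and the collagen Col2a1 averaged 4.45 and 4.57 and was not tested.

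Of 43 other endoderm transcription factors on the array 23 were tested, 8 rose, 6 fell and 9 were not called, where 25.8% of all genes were higher and 23.5% lower. The median log2 difference was 0.07. Onecut2, a relative of the liver factor Onecut1, rose by 4.54 (4.67 ± 0.25 to 9.21 ± 0.204) with 1 control array at the floor, the TALE factor Meis2 by 3.45, and the Iroquois factors Irx3 and Irx2 by 3.26 and 3.21. With the higher floor Onecut2 rose by 2.88 and Irx2 by 2.05. The epithelial ETS factor Ehf fell by 3.96 to the floor on all 3 Zeb1 arrays, and with the higher floor it fell by 2.08. The epithelial factor Grhl2 fell by 3.43, Elf3 fell by 2.15 and Eomes, a factor of early endoderm, fell by 1.53. A second Grhl2 probe set rose by 0.73 (adjusted p = 0.0137), so the probe sets of Grhl2 disagreed. Hnf4g, the paralogue of Hnf4a, lay at the floor on all 6 arrays on each of its 3 probe sets.

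Hox genes, which Cdx factors regulate along the body axis, mostly missed the filter. Of 33 on the array 8 were tested by limma, 3 rose, 0 fell (0 at an unadjusted p under 0.05) and 5 were not called, with a median log2 difference of 0.41. Over all genes the shares were 25.8% higher and 23.5% lower, and whether Cdx2 had a part in the Hox counts was not tested. Hoxb6 rose by 2.90 (4.99 ± 0.730 to 7.89 ± 0.154), Hoxb3 by 2.50 and Hoxa3 by 2.12, and with the higher floor Hoxb6 rose by 1.56. Hoxa5, Hoxb4, Hoxc6, Hoxa9 and Hoxa11 were tested and not called. Hoxb13, a hindgut gene, was at the floor on all 6 arrays, and Hoxa13 and Hoxd13 were below the filter. Another Hoxa3 probe set that could be tested was not called (log2 difference 0.09).

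Of 29 signals and enzymes that pattern the gut tube on the array, 19 were tested, 8 rose, 2 fell and 9 were not called, where 25.8% of all genes were higher and 23.5% lower. The median log2 difference was 0.34. Bmp2, a ligand that works beside Bmp4 in gut patterning, rose by 5.69 from the floor on all 3 control arrays, at least 51.5-fold. The retinal dehydrogenase Aldh1a3, which makes retinoic acid, rose by 5.02 (4.62 ± 0.296 to 9.63 ± 0.1) with 2 control arrays at the floor. Its other tested probe sets rose by 4.21, from the floor on all 3 control arrays, and by 1.49, so they differed in size. Dhrs3, a retinal reductase that limits retinoic acid, rose by 4.76 from the floor. Wnt5a rose by 4.84, whereas Wnt11 fell by 1.23. Under the higher floor these rises were 3.81 for Bmp2, 3.31 for Aldh1a3, 2.89 for Dhrs3 and 3.20 for Wnt5a. Aldh1a1 and the retinoic acid-degrading enzyme Cyp26b1, chosen after their values were seen, rose by 3.49 and 2.29. The receptor Rarg fell by 0.81 (adjusted p = 0.0197), a call lost without control replicate 2 or 3 or Zeb1 replicate 2 or 3, with the higher floor, with no filter and with no intensity trend. The receptors Rara and Rarb were tested and not called. Wnt11 was not called with the higher floor (log2 difference -0.68) or with no filter.

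**Figure D3:**
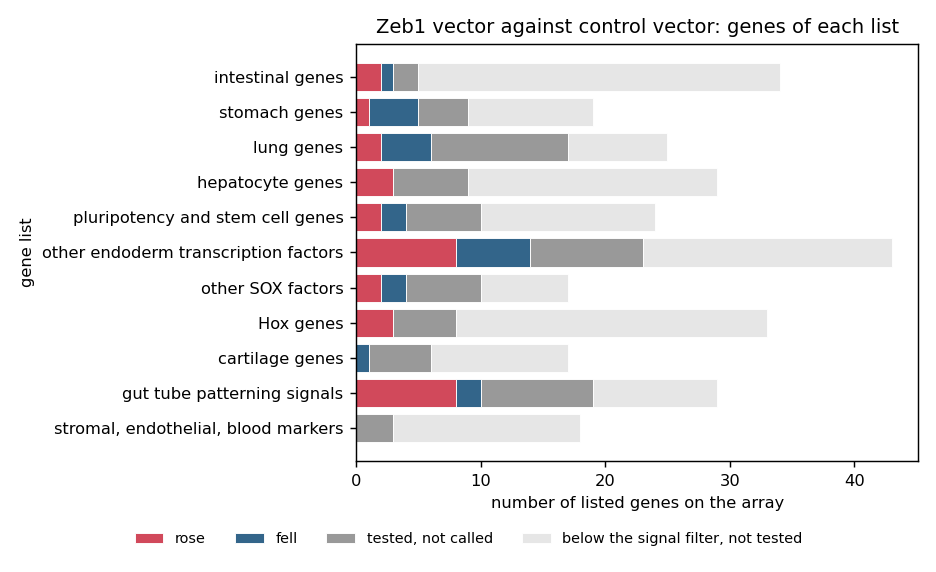
Number of listed genes on the array (horizontal axis) in each gene list (vertical axis), split into those that rose, fell, were tested without a call and missed the signal filter. Of the intestinal list 29 of 34 genes missed the filter, while 19 of 29 gut tube patterning signals were tested and 8 rose.

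The genomic neighbours of Cdx2, Sox2 and Hnf4a all had smaller differences than these genes. The 5 tested genes on each side, in the order of the RefSeq table, had a median log2 difference of 0.02 around Cdx2, with a range of -0.58 (Mtif3) to 1.36 (Rasl11a). Around Sox2 the median was -0.07 and the range -0.41 to 0.52, and around Hnf4a it was -0.14 and -0.50 to 0.44. Of the 10 neighbours 1 rose and 2 fell around Cdx2, 1 rose and 1 fell around Sox2, and 1 rose and 2 fell around Hnf4a, where 25.8% of all genes were higher and 23.5% lower. Hnf4aos, the antisense gene beside Hnf4a, was not called (log2 difference -0.50).

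For the other members, too, the share over all genes was 25.8% higher and 23.5% lower. Around Foxa2 the median was -0.01, with 2 that rose and 1 that fell, the thrombomodulin gene Thbd (by 2.63). Around Gata6, 8 of the 10 neighbours rose and 1 fell, with a median of 0.57, while Gata6 itself was lower. That difference from its neighbours was not tested. Next to Sox9, Map2k6 and Abca5 rose by 3.52 and 2.17, and the adjacent 2610035D17Rik fell by 1.08. In all 5 of the 10 neighbours of Sox9 rose and 2 fell, with a median of 0.23. Foxa1 and Nkx2-1 lie near each other and share neighbours. Around Foxa1 2 rose and 6 fell, with a median of -0.46, while Foxa1 itself had a log2 difference of -0.14. Around Foxa3 limma called 0 as higher (0 at an unadjusted p under 0.05) and 2 as lower, with a median of -0.36.

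**Figure D4:**
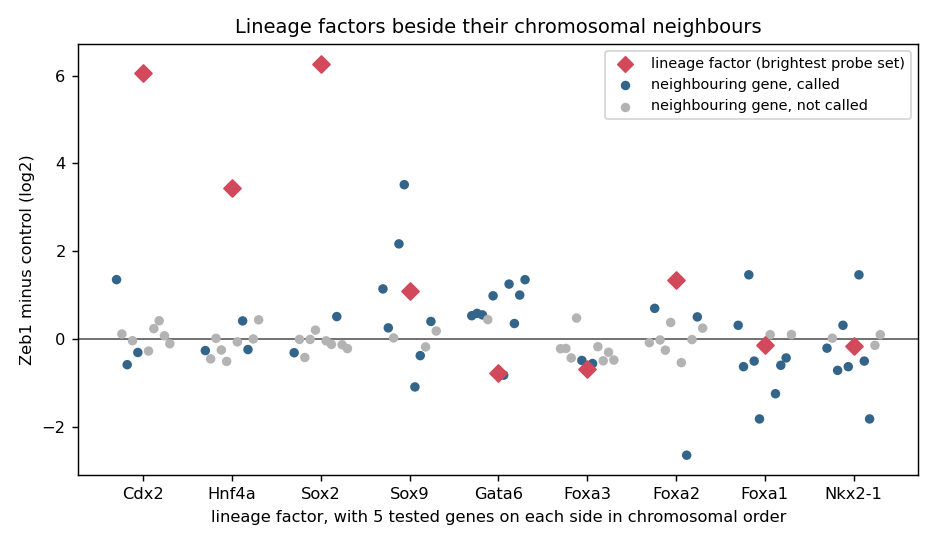
Zeb1 vector minus control vector in log2 units (vertical axis) for each lineage factor on its brightest probe set (diamond) and for the 5 tested genes on either side of it in chromosomal order (circles, dark where called). Cdx2, Sox2 and Hnf4a stand at 6.06, 6.27 and 3.43, above all of their 10 neighbours, and Gata6 at -0.76 lies below 9 of its 10.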

How the data were processed

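RNA of 6 samples (3 control vector, 3 Zeb1 vector) was read on Affymetrix arrays after biotin labelling, per the labels' protocols. The deposited values were log2 MAS5 signals (MAS5 is named in the submitters' processing notes, with no version). Out of log2, 100% of them were multiples of 0.1 within 0.01 of a step. The 2 missing values were set to the floor. Symbols came from the platform annotation, looked up by Entrez identifier in RefSeq (34741 of 34945 probe sets matched, 0 changed), and control, multi-gene (932) and unnamed (9160) probe sets were left out. Groups were compared with limma 3.58.1 in R 4.3.3 (lmFit, then eBayes with trend set to true) and p-values were adjusted by Benjamini-Hochberg over all tested probe sets, and the script was tested on simulated data. Errors of differences are moderated standard errors, and the number of arrays limits precision. Listed genes stood by their brightest tested probe set. All probe sets of the 9 members and of Zeb1, a few fixed genes, up to 4 rises and 4 falls per list and 3 nearest profiles for each of 3 members were named. Members and lists were chosen with earlier results of these data known. Promoters were read with Python 3.11.15. The same replicate numbers did not pair arrays across groups (see the processing alternatives).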

Additional observations from a re-analysis of the deposited data

How the results depend on the processing

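In all, 10 of the 17 probe sets and 52 listed genes (markers of other cells not counted) were called, and 9493 of all probe sets. The last number is 46.1% of the 20594 tested. Taken by gene, 25.8% of all genes were higher and 23.5% lower, and nothing is read from the count of listed genes. Requiring the array median on all 6 arrays left 6 of the 17 probe sets to test and 4 called, and 27 listed genes called, because probe sets low in 1 group are then not tested. When each array was left out in turn, 10 to 11 of the 17 probe sets, 49 to 52 listed genes and 8286 to 9217 of all probe sets were called. A Gata6 probe set (1425463_at) became a called fall without Zeb1 vector replicate 1, and Foxa3 without Zeb1 vector replicate 3. A Sox9 probe set (1451538_at) was not called with the floor at the 50th percentile or with no filter on low signals. Same-numbered arrays deviated from their group means with correlations of 0.017, 0.014 and -0.039, so the numbers were not taken as pairs. With the replicate number as a block, 9377 probe sets, 10 of the 17 and 52 listed genes were called. Of 221 differences of the 17 probe sets under other settings, 206 moved by no more than the SD within groups, 15 moved further, with the floor changed or removed, and 0 changed sign where called. Counts within single lists stayed within 1.5 times in 296 cases and did not in 34. No detection calls were used, so signals near the floor have no order.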
